A study of Mus musculus with 4 samples.

Results

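The distal block of mouse chromosome 8, from 119 to 124 Mb in build mm10, held 2001 of the 97825 H1foo peaks (2.05%) and 1477 of the 47493 AE4 peaks (3.11%) of the deposited lists. A peak was counted in the block when its centre lay between these positions, and 89 protein-coding genes had the middle of their span there. The block was chosen for its density of peaks, so the densities below describe it and carry no test. Chromatin immunoprecipitation with sequencing had been done in embryonic stem cells of the mouse strain 129S4/SvJae, all of which overexpressed mouse H1foo as a fusion with GFP. The 4 libraries comprised 2 made with a rabbit polyclonal antibody to H1foo prepared in-house and 2 made with the mouse monoclonal antibody AE4 for somatic H1. No library of cells without H1foo overexpression and no input library was analysed here, and none of the sources used says whether AE4 recognises H1foo as well. Chromatin had been cut enzymatically, per the labels' protocols. The authors deposited 1 list of peaks per antibody with no value per library, so no peak has a replicate error, no test between antibodies was possible, and the sequencing depth is unknown. Each peak carries the authors' score, which is used below only to rank and describe peaks within a list, since its scale is not named; the lowest score was 50.

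Linker histones of the H1 family bind the nucleosome where DNA enters and leaves it and help to fold chromatin. Somatic H1 variants are made in most cells, whereas H1foo is the variant of the oocyte and the early embryo. Start sites rich in CpG dinucleotides are in general kept open and free of nucleosomes, and linker histone is low around active ones.

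The block was set beside 5 Mb tiles of the other autosomes that held a like number of genes. Tiles started at 4 Mb and then every 5 Mb, and the 45 tiles with a gene number within 20% of that of the block (72 to 104 genes, median 88) are called matched tiles. The last peaks before the block were an H1foo peak at chr8:118907278-118907584 with a score of 58.3 and an AE4 peak at chr8:118941718-118942245 with a score of 54.4. The first peaks inside were an H1foo peak at chr8:119005895-119006452, with a score of 51.6, and an AE4 peak at chr8:119008077-119008533, with a score of 63.8. At the distal edge the last H1foo peak inside, at chr8:123997000-123998136, had a score of 72.1 and the first one after the edge, at chr8:124001570-124003858, had 272.7. The last AE4 peak inside, at chr8:123991172-123991855, had a score of 62.7 and the first after the edge, at chr8:124002214-124002761, had 58.2.

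The sequences that carry the clearest contrast inside the block are start sites with and without a peak, most of them alternative starts of the same gene. They are RefSeq windows of GRCm38.p6 from 250 bases before to 50 bases after the start, written 5′ to 3′ along the gene with each CG in capitals. Irf8, which encodes a transcription factor of myeloid and lymphoid cells, has a first start with 38 CG and a GC content of 70.0% that lay in no peak, and a second start with 8 CG and 54.7% GC that lay in peaks of both lists.
Irf8 start 1, chr8:120736108-120736407, plus strand, no peak: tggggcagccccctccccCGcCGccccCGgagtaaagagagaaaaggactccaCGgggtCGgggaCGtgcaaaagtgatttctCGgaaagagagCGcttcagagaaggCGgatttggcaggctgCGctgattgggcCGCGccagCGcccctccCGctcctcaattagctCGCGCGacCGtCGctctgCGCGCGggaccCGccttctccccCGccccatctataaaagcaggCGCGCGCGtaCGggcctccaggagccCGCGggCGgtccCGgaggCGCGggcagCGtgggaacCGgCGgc
Irf8 start 2, chr8:120738389-120738688, plus strand, H1foo and AE4 peaks: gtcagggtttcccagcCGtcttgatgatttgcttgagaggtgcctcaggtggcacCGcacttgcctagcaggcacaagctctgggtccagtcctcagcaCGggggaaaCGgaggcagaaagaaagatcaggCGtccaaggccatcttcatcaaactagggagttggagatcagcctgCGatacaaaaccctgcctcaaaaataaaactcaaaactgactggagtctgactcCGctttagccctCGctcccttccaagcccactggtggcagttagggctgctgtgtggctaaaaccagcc
The same order held in 6430548M08Rik, with 35 CG at the first start and 2 CG at the second. The second start lay in peaks of both lists and the first in none.
6430548M08Rik start 1, chr8:120113902-120114201, plus strand, no peak: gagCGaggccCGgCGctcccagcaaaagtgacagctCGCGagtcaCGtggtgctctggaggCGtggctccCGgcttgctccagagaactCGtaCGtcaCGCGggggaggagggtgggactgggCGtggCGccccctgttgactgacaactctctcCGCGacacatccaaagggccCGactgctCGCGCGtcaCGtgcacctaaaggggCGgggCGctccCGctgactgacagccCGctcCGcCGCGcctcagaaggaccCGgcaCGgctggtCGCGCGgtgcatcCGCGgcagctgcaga
6430548M08Rik start 2, chr8:120144679-120144978, plus strand, H1foo and AE4 peaks: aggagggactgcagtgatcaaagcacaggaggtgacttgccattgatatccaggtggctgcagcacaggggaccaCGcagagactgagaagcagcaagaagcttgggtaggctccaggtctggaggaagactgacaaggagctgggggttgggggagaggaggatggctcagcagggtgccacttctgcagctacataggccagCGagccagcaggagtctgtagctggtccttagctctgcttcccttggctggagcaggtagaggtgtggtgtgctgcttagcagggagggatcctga
Cbfa2t3 encodes a transcriptional corepressor of blood cells. Its start with 10 CG lay in an H1foo peak and its start with 53 CG, the largest number among the windows of the block, lay in a peak of neither list.
Cbfa2t3 start 1, chr8:122699060-122699359, minus strand, H1foo peak: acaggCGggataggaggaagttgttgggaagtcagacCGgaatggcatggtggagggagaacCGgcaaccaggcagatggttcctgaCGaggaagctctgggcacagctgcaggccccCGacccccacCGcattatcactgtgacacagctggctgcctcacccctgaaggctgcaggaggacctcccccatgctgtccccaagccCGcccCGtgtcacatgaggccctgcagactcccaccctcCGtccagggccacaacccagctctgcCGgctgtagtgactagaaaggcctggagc
Cbfa2t3 start 2, chr8:122678126-122678425, minus strand, no peak: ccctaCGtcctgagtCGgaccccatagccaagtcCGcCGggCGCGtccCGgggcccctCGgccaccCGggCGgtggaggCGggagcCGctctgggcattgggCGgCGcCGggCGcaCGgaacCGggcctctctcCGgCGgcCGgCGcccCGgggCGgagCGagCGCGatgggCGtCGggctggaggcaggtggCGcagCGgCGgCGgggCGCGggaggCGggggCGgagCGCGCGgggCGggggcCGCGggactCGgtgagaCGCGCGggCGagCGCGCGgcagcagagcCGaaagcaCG
The window of Car5a, a carbonic anhydrase of mitochondria, holds no CG at all and lay in peaks of both lists. That of Mvd, an enzyme of the mevalonate pathway of sterol synthesis, is shown as an exception, since it is rich in CG (23) and nevertheless lay in peaks of both lists.
Car5a, chr8:121944863-121945162, minus strand, H1foo and AE4 peaks: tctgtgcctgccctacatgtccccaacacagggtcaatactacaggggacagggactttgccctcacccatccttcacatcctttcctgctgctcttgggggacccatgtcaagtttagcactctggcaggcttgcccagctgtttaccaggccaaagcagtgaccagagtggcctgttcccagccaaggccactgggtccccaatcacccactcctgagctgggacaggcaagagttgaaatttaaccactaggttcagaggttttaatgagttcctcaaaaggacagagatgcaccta
Mvd, chr8:122443373-122443672, minus strand, H1foo and AE4 peaks: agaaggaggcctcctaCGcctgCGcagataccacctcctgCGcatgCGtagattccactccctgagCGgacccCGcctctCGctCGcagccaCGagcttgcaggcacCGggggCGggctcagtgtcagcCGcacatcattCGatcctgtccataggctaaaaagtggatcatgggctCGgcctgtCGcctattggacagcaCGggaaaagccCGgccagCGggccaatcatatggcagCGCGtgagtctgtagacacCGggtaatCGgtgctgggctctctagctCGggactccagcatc

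Both antibodies gave far more peaks in the block than in any matched tile. The H1foo density was 400.2 peaks per Mb in the block, against a median of 67.2 and a range of 3.4 to 272 peaks per Mb over the 45 matched tiles. The AE4 density was 295.4 peaks per Mb in the block, against a median of 32.6 and a range of 1.2 to 101.8 peaks per Mb. The block thus stood 5.96 times above the matched median for H1foo and 9.06 times for AE4, and no matched tile reached it in either list. Among peaks with a score of at least 100, the block held 1079 for H1foo and 536 for AE4, against matched medians of 78 and 13, folds of 13.8 and 41.2. The block also exceeded every matched tile in the share of sequence under peaks. H1foo peaks covered 42.5% of the block, against a median of 4.22% and a highest value of 19.0% in the matched tiles. AE4 peaks covered 23.5% of the block, against a median of 1.58% and a highest value of 5.34%. Of the matched tiles, 22 held olfactory or vomeronasal receptor genes and the block held none; against the 23 tiles without them the ratios of density were 4.21 for H1foo and 6.65 for AE4.

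**Figure D1:**
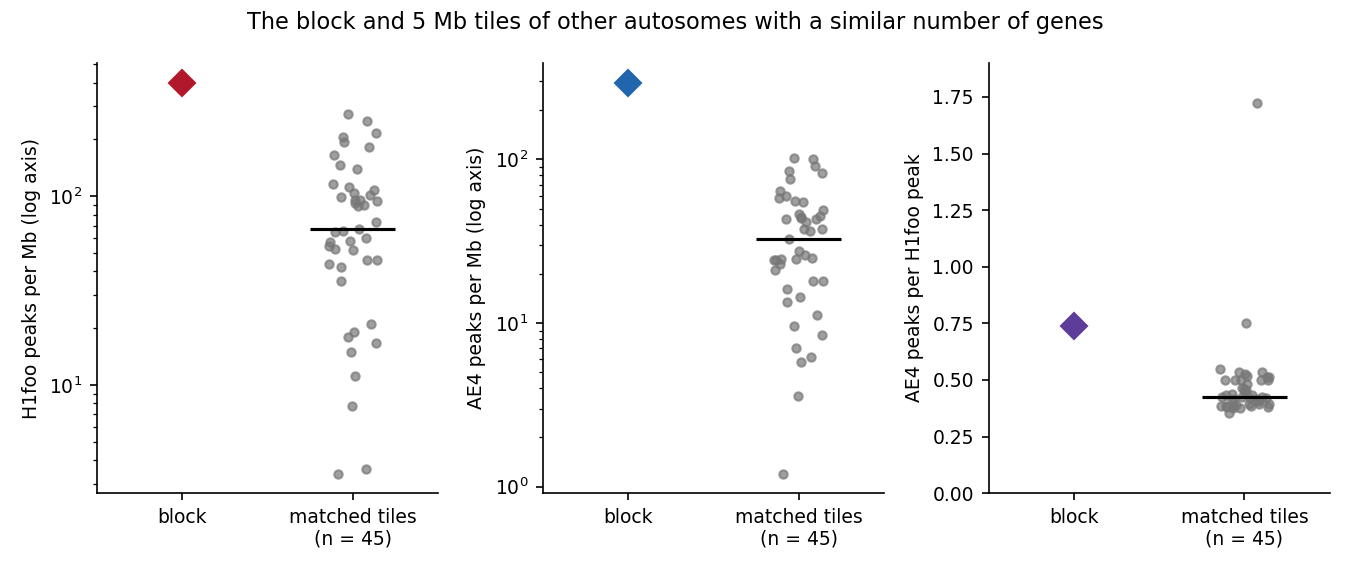
Peaks per Mb of H1foo (left, log axis) and AE4 (middle, log axis) and the number of AE4 peaks per H1foo peak (right) in the block (diamond) and in each of the 45 matched tiles (grey points, line at the median). The block lies above all points in the first 2 panels, and 2 matched tiles lie above it in the third.

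The peaks of the block were also wider and had higher scores. The median H1foo peak was 807 bp wide with a score of 105.7 in the block, against medians over the matched tiles of 556.5 bp and 72.1. The median AE4 peak was 672 bp wide with a score of 84.9 in the block, against 457 bp and 63.0. No matched tile reached the block in any of these medians. Peaks of 2 kb or more numbered 190 for H1foo, or 9.50% of the H1foo peaks of the block, where 1.37% of the whole list was that wide. For AE4 they numbered 39, or 2.64%, where 0.526% of the whole list was that wide. The block held 14.1% of all wide H1foo peaks and 15.6% of all wide AE4 peaks, and among the 100 highest scores of a list it held 20 for H1foo and 14 for AE4.

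A larger share of each list overlapped the other in the block than in the matched tiles, where peaks covered much less sequence. Sharing at least 1 bp with a peak of the other list was found for 1122 of the 2001 H1foo peaks (56.1%, Wilson 95% interval 53.9 to 58.2%), against a median of 21.9% in the matched tiles and 24.1% of the list on the assembled chromosomes. For AE4 it was found for 1264 of the 1477 peaks (85.6%, 83.7 to 87.3%), against a matched median of 50% and 51.2% of the list. These intervals cover counting error only. The share was higher in the block than in every matched tile for both lists. H1foo centres lay in an AE4 peak for 43.2% of the H1foo peaks of the block, where AE4 peaks covered 23.5% of its sequence. In the matched tiles pooled, the share of H1foo centres was 18.1% where AE4 peaks covered 1.93% of the sequence. AE4 centres lay in an H1foo peak for 80.6% of the AE4 peaks of the block at a coverage of 42.5%, against 50.7% at a coverage of 5.83% in the matched tiles. Set against coverage, the order was reversed, but this comparison could not come out otherwise. At most all centres can lie in a peak. At the coverages of 23.5% and 42.5% in the block, the multiples found in the matched tiles were therefore out of reach. H1foo centres lay in AE4 peaks at 1.84 times the coverage in the block and 9.36 times in the matched tiles. AE4 centres lay in H1foo peaks at 1.89 times the coverage in the block and 8.70 times in the matched tiles. The difference in coverage limits what these shares say about how closely the lists coincide. The excess of the shared percentage over the matched median was smaller under some other settings. With peaks trimmed to 200 bp around their centres, the H1foo share was 29.8% in the block and 14.8% in the matched tiles, a gap of 15.1 percentage points in place of 34.2. The AE4 share was then 40.4% in the block and 35.4% in the matched tiles, a gap of 5.04 points in place of 35.6. Against tiles of chromosome 8 with a gene number within 40% of that of the block, the gap was 12.5 points for H1foo and 15.6 points for AE4. Peaks found in both lists were the stronger ones in the block. The 1122 shared H1foo peaks had a median score of 149.1 and a median width of 1024.5 bp, whereas the 879 unshared ones had 80.9 and 650 bp. Among AE4 peaks the median score was 89.7 for the 1264 shared and 63.9 for the 213 unshared ones. A wider peak has more bases in which to meet another, and the part of width in these differences was not tested.

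AE4 peaks were more frequent relative to H1foo peaks in the block than in most matched tiles. The block held 0.738 AE4 peaks per H1foo peak, against a median of 0.424 and a range of 0.353 to 1.72 in the matched tiles, 2 of which were higher. The 4 tiles of chromosome 8 itself with a gene number within 40% of that of the block had a median of 0.671. The block stood 1.1 times above them in this ratio, 2.79 times above them in H1foo density and 3.10 times in AE4 density. Chromosome 8 outside the block was also dense for its genes. Of its 24 other tiles, 22 lay above the median of tiles of other autosomes with as many genes for H1foo and 24 for AE4, with median folds of 2.49 and 3.28. The highest of these folds, 13.3 for H1foo and 13.5 for AE4, belonged to the adjoining tile from 114 to 119 Mb, which holds 21 genes. The adjoining tile from 124 to 129 Mb, with 35 genes, had folds of 6.41 and 9.74, and the tile from 74 to 79 Mb had 7.29 for H1foo. For the number of their genes, both neighbours thus lay further above other autosomes than the block did in both lists, and the tile from 74 to 79 Mb did so for H1foo.

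Along the block the peaks began within its first part and ran on past its end. The Mb before the block held 30 H1foo and 19 AE4 peaks and 1 gene midpoint. The 5 Mb inside held 327, 414, 426, 448 and 386 H1foo peaks in order of position, and 245, 361, 288, 317 and 266 AE4 peaks. The Mb after the block held 367 H1foo and 237 AE4 peaks. The distal edge at 124 Mb is therefore an edge of the definition only, whereas few peaks lay in the Mb before the proximal one.

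In bins of 100 kb the number of peaks varied less in the block than in the matched tiles. All 50 bins held peaks of both lists, where 47.4% of autosomal bins held an H1foo peak and 46.2% an AE4 peak. The bins held between 7 and 54 H1foo peaks (median 43.5) and between 3 and 55 AE4 peaks (median 31). The coefficient of variation over bins was 30.1% for H1foo in the block, against a median of 120% and a lowest value of 42.5% over the matched tiles. For AE4 it was 42.4% in the block, against a median of 122% and a lowest value of 54.9%. A low count inflates this coefficient, and bins averaged 40 H1foo and 29.5 AE4 peaks in the block, against 6.72 and 3.26 in the median matched tile. The 10 fullest bins held 26.2% of the H1foo and 31.4% of the AE4 peaks of the block, against medians of 60.4% and 60.3% in the matched tiles. Bins rich in one list were rich in the other, with a Spearman correlation of 0.774 over the 50 bins, which are neighbours on 1 chromosome and come from the same pair of lists. The share of a bin inside protein-coding genes went with neither count closely (Spearman 0.103 for H1foo and 0.327 for AE4). Counts do not show covered sequence, which was not set against that share. H1foo peaks covered from 3.63% of the bin from 119.1 Mb to 83.3% of the bin from 120.3 Mb. The latter held 42 H1foo peaks, as did the gene-free bin from 121.3 Mb, where they covered 31.7%.

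**Figure D2:**
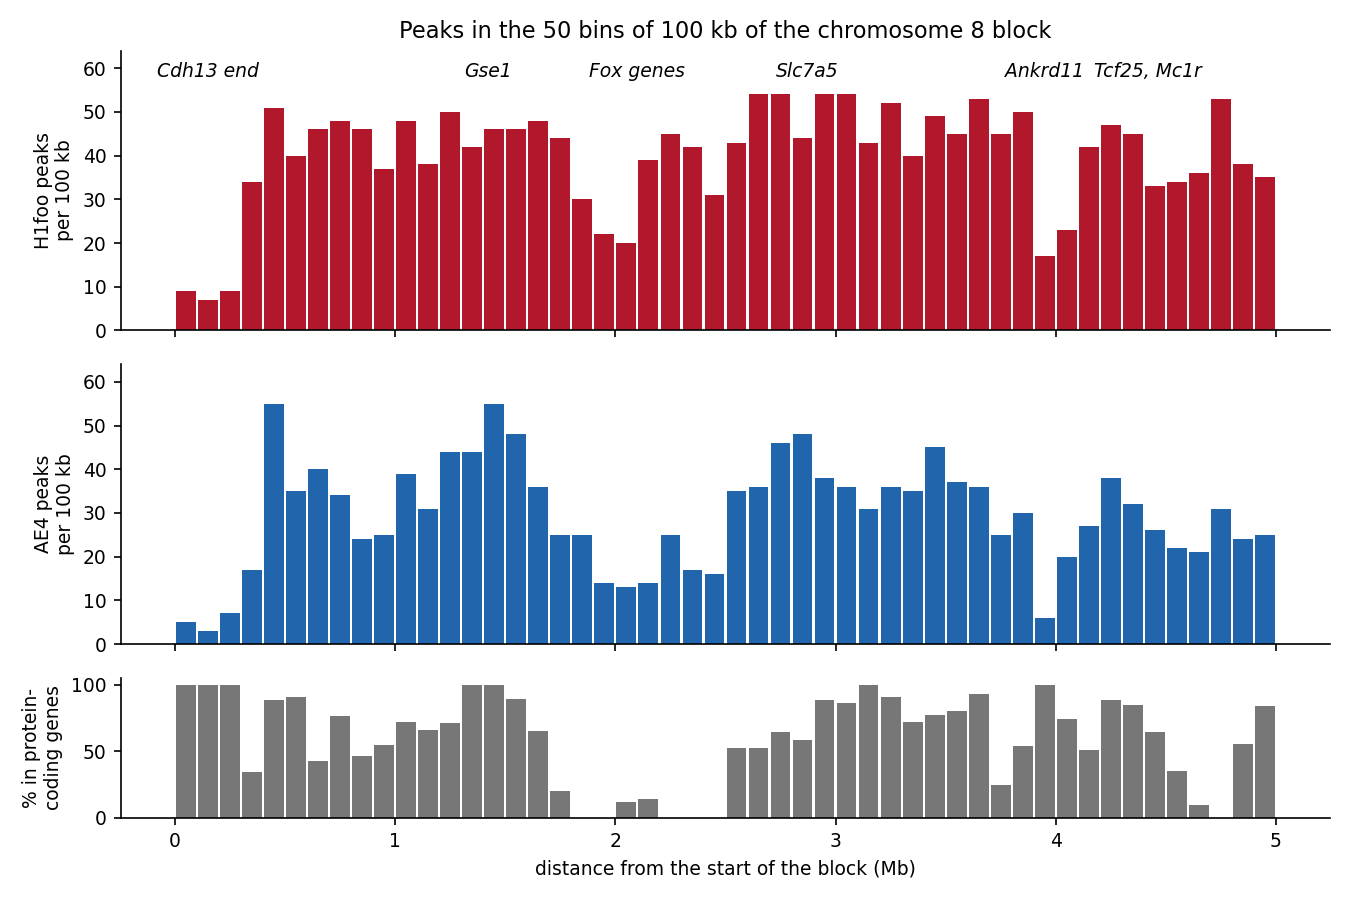
H1foo peaks (top) and AE4 peaks (middle) per 100 kb bin along the block, and the percentage of each bin inside protein-coding genes (bottom). Counts are low over the end of Cdh13 and over Ankrd11, where genes fill the bins, and also just before the Fox genes, where genes cover little of the bins. H1foo counts reach 53 in a bin outside genes near the distal end.

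Bins without any protein-coding gene were filled as well. The block has 6 such bins, with 22 to 53 H1foo peaks (median 36.5) and 14 to 31 AE4 peaks (median 21). On other autosomes, 558 gene-free bins had as many genes within 500 kb. These held a median of 1 H1foo peak (0 to 48) and 0 AE4 peaks (0 to 29), and 48.7% had no H1foo peak and 52.5% no AE4 peak. The 470 gene-free bins of chromosome 8 outside the block held a median of 0 H1foo and 1 AE4 peaks. These 470 bins were not matched on genes within 500 kb. Their median number of such genes was lower than that of the gene-free bins of the block. The gap between the block and the matched tiles was accordingly widest outside genes. Outside genes there were 380 H1foo peaks per Mb in the block and 48.9 in the matched tiles pooled, a ratio of 7.77. Within 2 kb of a gene boundary there were 407 in the block and 146 in the matched tiles, a ratio of 2.79, and deeper inside genes 412 and 114, a ratio of 3.63. AE4 gave the same order, with 232 peaks per Mb outside genes in the block and 20.8 in the matched tiles (ratio 11.2), 285 and 51.6 at boundaries (5.53), and 340 and 52.6 deeper inside genes (6.46). In the matched tiles H1foo peaks were densest at gene boundaries, while in the block the 3 classes lay between 380 and 412 per Mb. That closeness holds for counts only. The H1foo peaks of the block had median widths of 1031.5 bp at boundaries, 859 bp deeper inside genes and 699 bp outside genes. Their median scores were 131.3, 114.1 and 88.3 in the same order.

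**Figure D3:**
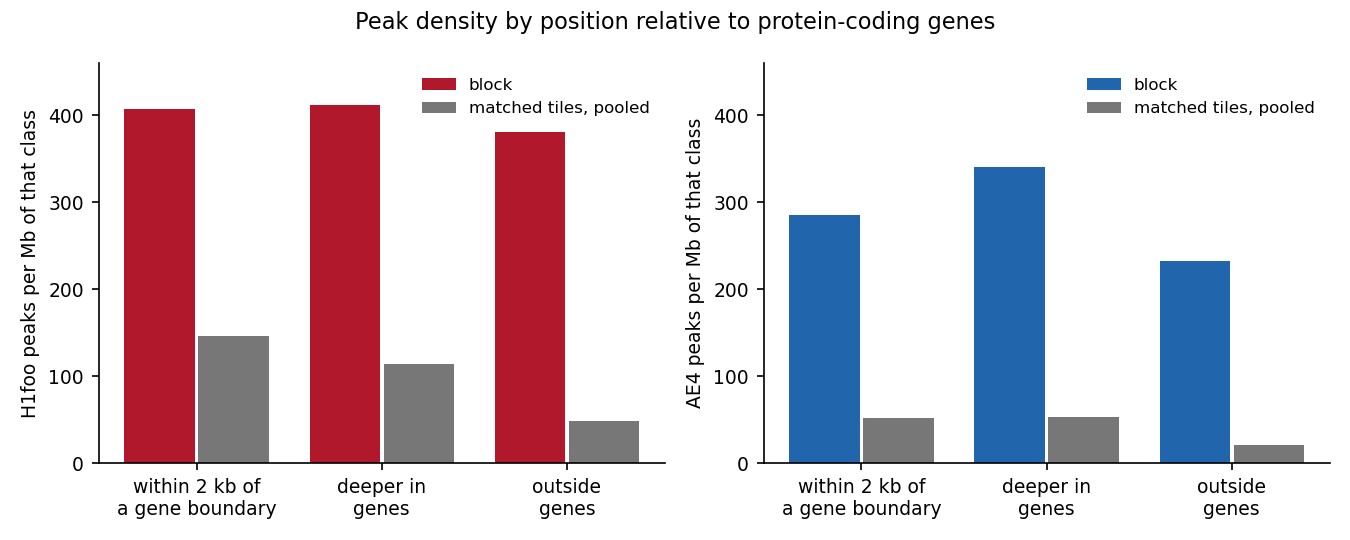
Peaks per Mb of sequence within 2 kb of a gene boundary, deeper in genes and outside genes, for H1foo (left) and AE4 (right), in the block (coloured) and in the matched tiles pooled (grey). H1foo bars of the block run from 380 to 412 per Mb, whereas the grey bars fall to 48.9 outside genes.

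A few stretches stood out as low. The first 3 bins lie in the end of Cdh13, a large gene for a cadherin anchored to the membrane, and held 9, 7 and 9 H1foo peaks and 5, 3 and 7 AE4 peaks. The longest stretch without an H1foo peak, 62.1 kb, and the longest without an AE4 peak, 118 kb, both lay in Cdh13. The second low stretch was Ankrd11, which encodes a chromatin regulator with ankyrin repeats. Its bin from 122.9 Mb held 17 H1foo and 6 AE4 peaks, and stretches of 26.6 kb without H1foo and 65.9 kb without AE4 lay in it. A further low stretch has few genes. Its bin from 120.9 Mb, with no gene, held 22 H1foo and 14 AE4 peaks, and its bin from 121 Mb, which reaches Foxf1 and is 12.1% genic, held 20 and 13. Between neighbouring peaks the median gap in the block was 613 bp for H1foo and 1185.5 bp for AE4, against 2590 and 7818 bp over all autosomes. AE4 peaks were also few in the array of 48 annotated 5S ribosomal RNA genes at chr8:123538784-123622046. Its 83.3 kb held 21 H1foo peaks and 3 AE4 peaks, which is 252 and 36.0 per Mb. H1foo peaks touched 6 of the 48 genes and AE4 peaks touched 0. The copies are nearly identical, so the placement of reads among them is uncertain.

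Nearly every gene of the block had peaks at its boundary. An H1foo peak lay within 2 kb of an end of 88 of the 89 genes (98.9%, Wilson 95% interval 93.9 to 99.8%), against 54.4% of the genes of the matched tiles and 44.9% of all protein-coding genes. An AE4 peak did so for 82 genes (92.1%, 84.6 to 96.1%), against 30.6% in the matched tiles and 24.1% of all. All 82 also had an H1foo boundary peak, where 21.6% of all genes had both. With so many peaks in so little sequence, a boundary peak says little about a single gene of the block, and the genes are better told apart by how much of their span was covered. Of both ends, 74 genes (83.1%) had an H1foo peak at each and 53 (59.6%) an AE4 peak at each. The shares were 28.5% and 7.06% in the matched tiles and 21.9% and 6.08% of all protein-coding genes. The median gene had 4.84 H1foo and 3.57 AE4 peaks per 10 kb of its span and flanks. These medians were 0.779 and 0.0962 in the matched tiles and 0.323 and 0 over all protein-coding genes. Gm39270, a predicted gene, had no peak of either list.

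Gse1, a gene for a coiled-coil protein found with histone deacetylase complexes, was the longest gene counted in the block and was heavily covered. It held 162 H1foo and 178 AE4 peaks over its 353 kb, and these covered 79.3% and 49.8% of its span. Of the 10 highest H1foo scores of the block, 5 lay in Gse1. They included the highest of all, 2171, for a peak of 9887 bp at chr8:120492246-120502132 that overlapped 7 AE4 peaks. The highest AE4 score, 624.5, was also in Gse1, at chr8:120364866-120368018, inside an H1foo peak with a score of 1031. The 3 RefSeq start windows at hand for Gse1, with 17, 23 and 37 CG, nevertheless lay in no peak. They do not include the outer end of the gene, since the first begins at chr8:120488616 and the gene span at chr8:120228501. Other high H1foo scores lay in Tcf25 (1283), a gene for a factor of ribosome quality control, in Slc7a5 (1229), the large neutral amino acid transporter, in Piezo1 (1087), a mechanically gated ion channel, across Mc1r (1073), the melanocortin receptor of pigment cells, and in Zfp469 (1035), a zinc finger gene. For AE4, Rnf166 had 563.7, Dpep1, a dipeptidase, had 540.6, Mc1r had 460.5 and Spire2, an actin nucleator, had 435.1. Each of the 10 highest peaks of either list overlapped at least 1 peak of the other.

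Genes without AE4 peaks were few and included all 3 forkhead genes. Foxf1 and Foxc2, transcription factors of mesoderm and vessel development, had 1 H1foo peak each near their ends, and Foxl1, a factor of gut mesenchyme, had 3. None of them had an AE4 peak within 2 kb. Foxf1 and Foxc2 had 0% of their span in peaks of either list and Foxl1 had 20.9% in H1foo peaks. Their neighbourhood was low in AE4 relative to H1foo as well. The bin from 121.1 Mb, with Foxc2 and Foxl1, held 39 H1foo and 14 AE4 peaks, a ratio of 0.359, and that from 121.3 Mb, without genes, 42 and 17, a ratio of 0.405. Rpl13, a protein of the large ribosomal subunit, had 1 H1foo peak and no AE4 peak, and 0% of its span lay in peaks. Def8 and Rab4a had AE4 peaks inside the gene and none at an end. In some short genes the lists parted over the span itself, although AE4 peaks lay within 2 kb of an end. H1foo peaks covered 91.8% of Aprt, an enzyme of adenine salvage, and 100% of Acta1, the actin of skeletal muscle, while AE4 peaks covered 0% and 6.86%. Aprt had AE4 peaks at both ends. Hsbp1 had 22.5% of its span in H1foo peaks and 0% in AE4 peaks.

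The ratio of the lists varied among genes. Among those with at least 10 peaks in all, AE4 peaks were most frequent relative to H1foo in Pabpn1l and Taf1c (1.4 AE4 peaks per H1foo peak), Map1lc3b (1.33), Slc7a5 and Vps9d1 (1.29). Pabpn1l encodes a binding protein of poly(A) tails, Taf1c a factor of RNA polymerase I, and Map1lc3b an LC3 protein of autophagosomes. The ratio was lowest in Irf8 (0.357), Spata33 (0.375), Ccsap (0.417), Cotl1 (0.421) and, with equal values, Sult5a1 and Ankrd11 (0.5). Apart from Ankrd11, with 30 H1foo and 15 AE4 peaks, the lowest ratios rest on few peaks, such as 14 H1foo and 5 AE4 in Irf8. Among genes of at least 5 kb, the most H1foo peaks per 10 kb were found in Ctu2 (9.07), Trhr2 (8.01), Car5a (7.32), Cpne7 (6.86), Cibar2 (6.63) and Osgin1 (6.56). The fewest among genes of that length were in Gm42048 (1.44), Ankrd11 (1.84), Zc3h18 (2.90), Cox4i1 (3), a subunit of cytochrome c oxidase, Mbtps1 (3.11) and Klhl36 (3.20). Peaks per 10 kb and covered span are different measures, since Gse1 with its long peaks had 4.54 H1foo peaks per 10 kb, below the median gene.

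**Figure D4:**
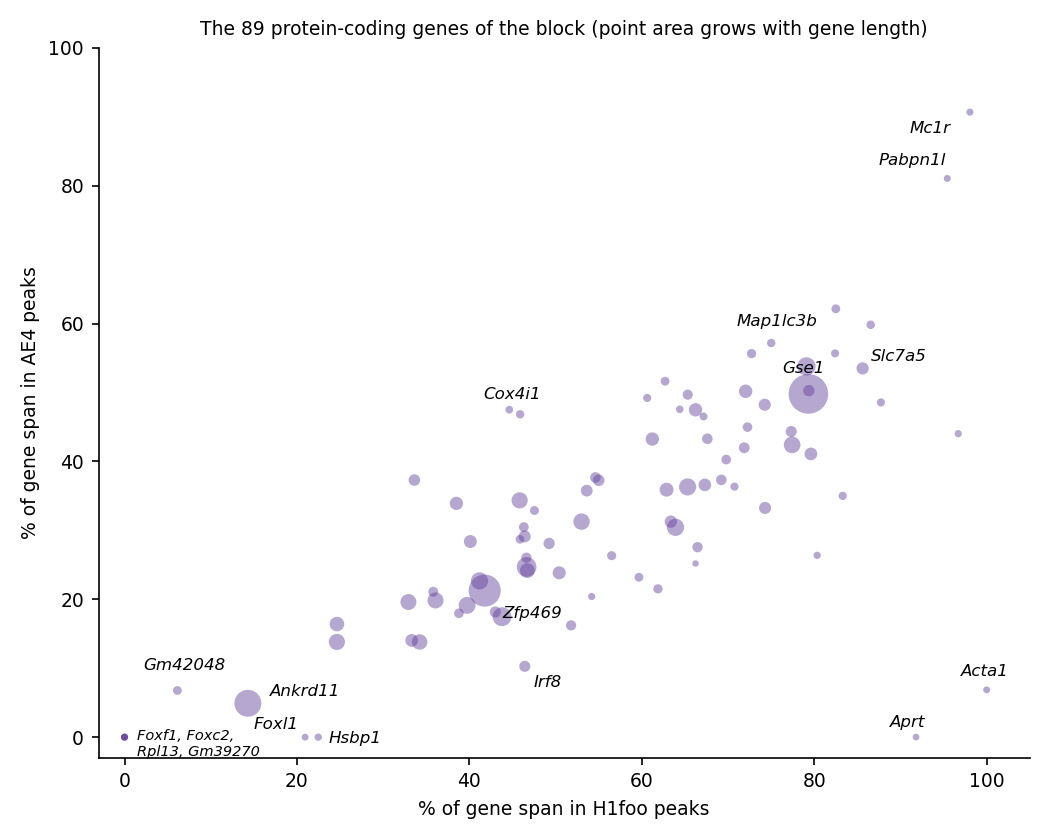
Percentage of the span of each of the 89 protein-coding genes of the block in H1foo peaks (horizontal) and AE4 peaks (vertical), with point area growing with gene length. Most genes lie below the diagonal; Foxf1, Foxc2, Rpl13 and Gm39270 sit at 0 on both axes, and Aprt and Acta1 are almost fully in H1foo peaks with little AE4.

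Grouped by role, the genes differed in how much of their span was covered. Over all 89 genes the median was 59.7% in H1foo peaks and 32.9% in AE4 peaks. The 6 genes of DNA replication, repair and the cell cycle had medians of 72.0% and 44.3%. All 6 had boundary peaks of both lists, as did 82 of the 89 genes of the block (92.1%). The 6 include Cdt1, which licenses replication origins (64.4% and 47.6%), and Gins2, a subunit of the replicative helicase (83.3% and 35.0%). Fanca of the Fanconi pathway (45.8% and 34.3%) is another. The 7 genes of membrane transport and channels had 63.9% and 46.8%, with Slc7a5 at 85.6% and 53.5% and Piezo1 at 79.1% and 53.8%. The 7 genes of adhesion and cytoskeleton had 62.9% and 35.8%, with the muscle cadherin Cdh15 at 71.9% and 42.0% and the neuronal tubulin Tubb3 at 47.5% and 32.9%. The 10 genes of mitochondria and metabolism had 55% and 32.6%, from 38.5% of Spg7 to 91.8% of Aprt in H1foo peaks. Lower medians were found for 8 genes of autophagy and membrane traffic (41.1% and 25.8%), with Usp10, a ubiquitin protease, at 34.2% and 13.8%. The 14 transcription and chromatin regulators had 46.5% and 21.1%, with AE4 boundary peaks at 11 of 14, against 82 of all 89 genes. They spanned the widest range, from 0% at Foxf1 to 87.7% at Taf1c in H1foo peaks. Irf8 had 46.4% and 10.3%, Cbfa2t3 43.8% and 17.5%, Banp, a protein bound to the nuclear matrix, 46.6% and 24.7%, and Zfpm1, a partner of GATA factors, 77.4% and 42.4%. The groups hold few genes and their ranges overlap, and no difference between them was tested.

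Start sites rich in CG lay in peaks less often than other start sites in the block, and seldom in peaks of the AE4 list. Promoter windows were at hand for 65 of the 89 genes, 77 windows in all. A window was called high in CpG with an observed to expected ratio of at least 0.6 and a GC content of at least 55%. Of the 50 high-CpG windows, 16 touched an H1foo peak (32.0%, Wilson 95% interval 20.8 to 45.8%) and 2 an AE4 peak (4%, 1.1 to 13.5%). Of the 27 other windows, 21 touched an H1foo peak (77.8%, 59.2 to 89.4%) and 14 an AE4 peak (51.9%, 34.0 to 69.3%). The windows are not independent, although the intervals treat them so. The 50 came from 44 genes and the 27 from 26, and some overlap, such as those of Zc3h18 and those of Ctu2 and Rnf166. Over all autosomal promoters, 14.3% touched an H1foo peak and 2.49% an AE4 peak. In the matched tiles the high-CpG windows had 14.2% and 0.427% and the others 17.9% and 4.97%, so the gap between the kinds of window ran the same way for both lists there, and was small for H1foo. By number of CG, H1foo peaks touched 80.8% of the windows with 0 to 15, 37.0% of those with 16 to 31 and 25.0% of those with 32 to 53. AE4 peaks touched 53.8%, 7.41% and 0 of 24. In the matched tiles, windows with 0 to 15, 16 to 31 and 32 to 65 CG touched H1foo peaks in 17.9%, 16.8% and 7.38%. For AE4 the shares there were 5.30%, 0.512% and 0.224%. The H1foo shares of the first 2 classes were thus close in the matched tiles. The high-CpG windows with an AE4 peak were those of Mvd and Ccsap. The other windows include tissue-specific genes such as Acta1 (12 CG, both lists) and Mc1r (4 CG, H1foo), but Rpl13, with 19 CG and a GC content of 52.7%, lay in no peak.

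Where a gene had several starts that differed, the start with the peak was usually the one with fewer CG. This held for 6 of 7 genes in the block for H1foo, with Hsdl1 as the exception, and for 5 of 5 for AE4. In the matched tiles it held for 67 of 117 genes for H1foo and 23 of 39 for AE4. Within the block the difference was small in some genes, such as 44 against 46 CG in Rnf166 and 12 against 15 in Taf1c. The counts of the lists are not separate there, since all of the AE4 genes but Ccsap were also among the H1foo genes. Irf8, 6430548M08Rik and Cbfa2t3, whose windows are printed above, are among the genes of the block. For AE4 the shares were low over a stretch around high-CpG starts, while for H1foo they varied from point to point. At the start itself, 20% of the 50 high-CpG starts of the block lay in an H1foo peak, against 24% at 1500 bp upstream, 24% at 1250 bp into the gene, 38% at 5 kb upstream and 44% at 5 kb into the gene. For AE4 the shares were 2% at the start, 0% at 500 bp upstream, 20% at 5 kb upstream and 32% at 5 kb into the gene. At the 27 other starts, 66.7% lay in an H1foo peak and 40.7% in an AE4 peak. High-CpG starts of the matched tiles had 6.91% in an H1foo peak and 0.0611% in an AE4 peak at the start, against 10.5% and 3.67% at 5 kb upstream; their lowest H1foo share was 6.54%, at 1000 bp upstream.

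**Figure D5:**
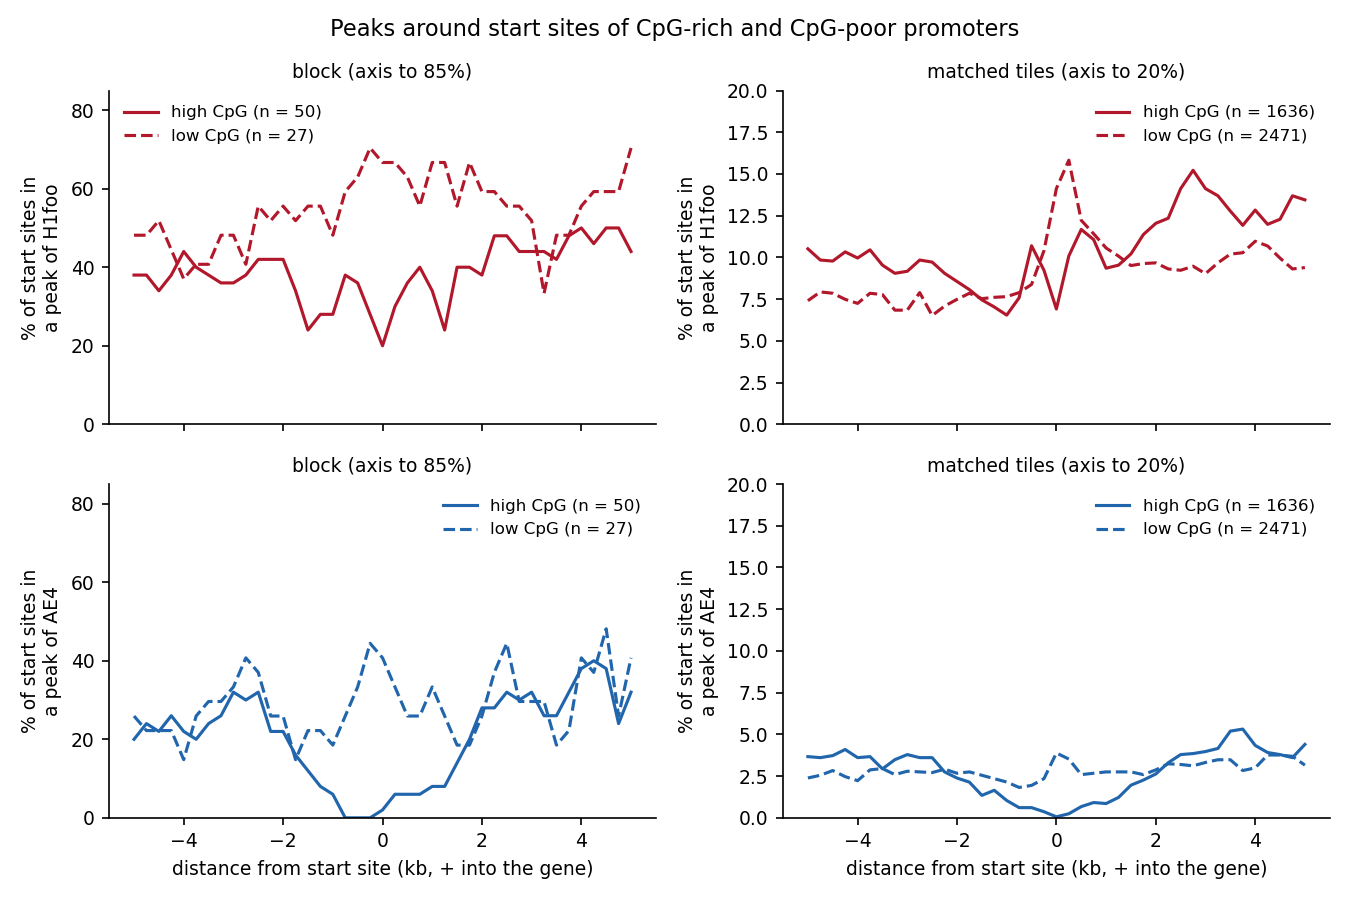
Percentage of start sites whose position at each distance lay in a peak of H1foo (top) and AE4 (bottom), for high-CpG (solid) and other (dashed) starts, in the block (left) and the matched tiles (right, on a shorter axis). In the block the solid lines fall to 20% for H1foo and 0% for AE4 near the start, while the dashed lines stand at 66.7% and 40.7% there.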

How the data were processed

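Per the submitters' processing notes, Bowtie 1.1.2 placed the reads on mm10. MACS called the peaks, per the file headers, and its version is not given. The deposited lists, 1 per antibody, hold a score for each peak, the lowest 50; none of the sources used says how both libraries entered a list. Positions count from 1, with 2 negative starts moved to 0. Python 3.11.15, pandas 2.3.3, numpy 2.4.6 and scipy 1.17.1 were used, on code tested on simulated peaks. RefSeq gave 21774 placed protein-coding genes, and 113 on scaffolds were left out. Peaks belong to tiles, bins and the block by their centre and overlap by at least 1 bp. Gene windows reach 2 kb past each end. With no genome sequence at hand, promoter windows of the RefSeq table, of the same build, were read in place of peak centres. Genes were named by score rank, by most and fewest peaks per 10 kb (genes of at least 5 kb), by ratio, by absence of peaks and from a list of known genes; Hsbp1 and Acta1 in the plot of covered spans, and other genes given as examples of groups or windows, were picked after their values were seen. The block, gene lists and rules were chosen with earlier results of these data known. Counts have no replicate error, and Wilson intervals cover counting error only.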

Additional observations from a re-analysis of the deposited data

How the results depend on the processing

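No paired analysis was possible because the deposited lists hold no value per library, and for the same reason no library could be left out. None of the alternatives below turned the direction of a density, ratio or percentage of shared peaks. Overlap set against coverage, given above, was lower in the block than in the matched tiles, but the high coverage of the block caps that measure. The cause of the shifts was not tested. Each alternative follows as the density fold of H1foo and of AE4 over matched tiles, where the report gave 5.96 and 9.06. These were 13.8 and 41.2 with scores of at least 100, and 4.92 and 7.84 with gene numbers within 10%. With tiles started at 1.5 Mb in place of 4 Mb they were 4.85 and 8.09. Tiles matched on bases in genes gave 8.68 and 14.1, and tiles of chromosome 8 gave 2.79 and 3.10. As covered bases the folds were 10.1 and 14.9. Without tiles holding receptor genes, an alternative chosen after seeing the data, they were 4.21 and 6.65. The ratio of AE4 to H1foo peaks over the matched median, 1.74 in the report, was 2.73 with scores of at least 100 and 1.1 with tiles of chromosome 8. The excess of shared peaks, 34.2 percentage points for H1foo, became 30.3 with scores of at least 100, 38.5 with tiles matched on bases in genes, 12.5 with tiles of chromosome 8, 21.9 when at least 50% of the peak had to be shared and 15.1 with 200 bp around centres. For AE4, 35.6 points became 32.0, 44.7, 15.6, 33.3 and 5.04 in the same order. They became 31.0 with tiles started at 1.5 Mb and 30.6 without tiles holding receptor genes. Of the genes, 85 had an H1foo and 79 an AE4 boundary peak within 1 kb, 89 and 87 within 5 kb, and 85 and 62 with scores of at least 100. The unknown depth limits every count, since a caller reports more peaks from a deeper library.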

Other observations

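Most long noncoding RNA genes of the block had boundary peaks too. Of 69 annotated in the block, 64 (92.8%) had an H1foo peak within 2 kb of an end, against 32.5% of all 12637 such genes. AE4 gave 58 (84.1%) in the block, against 17.5% of all.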
